A study of Homo sapiens with 13 samples.

Results

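Aminoacyl-tRNA synthetases are the enzymes that load each amino acid onto its tRNA, and transcripts of 37 genes for them were followed in FK866-sensitive and FK866-resistant leukemia cells. The genes were taken by name from the array design, which held 42 probes for them among 34127 in all. By the compartment of the protein, 19 genes are cytosolic, 16 are mitochondrial, and 2 (GARS and KARS) give a cytosolic and a mitochondrial enzyme from the same gene. Probes had to be well above background on all arrays of 1 group or more to be kept, which left 36 of the 37 genes among 17594 genes tested. The gene left out was MARS2, the mitochondrial methionyl-tRNA synthetase, whose probe was well above background on 1 array only, of CEM RES with FK866.

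Translation in the cytosol and in the mitochondrial matrix each needs charged tRNAs, because mitochondria translate their own mRNAs with their own tRNAs. Mammalian cytosolic enzymes partly assemble into a multi-synthetase complex, held together by the scaffold proteins AIMP1, AIMP2 and EEF1E1. Many genes for cytosolic synthetases are targets of ATF4, the transcription factor of the integrated stress response, which is translated when amino acids or energy run short. The mitochondrial enzymes are encoded in the nucleus and have mostly separate genes, whose names end in 2. One name breaks this pattern, since TARSL2 ends in 2 but encodes a cytosolic threonyl-tRNA synthetase.

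The cells were CCRF-CEM, a line from a human acute lymphoblastic leukemia of T cells, used as parental cells (CEM PA) and as a population (CEM RES) selected in rising concentrations of FK866 until it resisted 100 nM. FK866 blocks NAMPT, through which cells recycle nicotinamide into NAD+. Cells of each line received 5 nM FK866 or DMSO (mock) for 48 h, and total RNA was hybridized to 1-colour Agilent arrays: 3 for mock CEM PA, 2 for CEM PA with FK866, 4 for mock CEM RES and 4 for CEM RES with FK866. The resistant cells were kept in FK866 between experiments, so the mock CEM RES were not cells that had never met the drug. CEM RES is a single selected population, and its replicates are cultures of that population, which the labels call biological replicates.

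Of 43118 spots per array that were not controls, 26457 to 33239 were well above background and 0 were saturated. All 10 T-lymphoblast markers looked up (among them CD7, LCK and CD3E) were well above background on the 13 arrays, as were CD79A and CD14 of other blood lineages, while KRT19, MS4A1, MPO and HBB were so on 8, 11, 1 and 2 arrays and EPCAM, COL1A1 and COL3A1 on 0. The CEM PA arrays were scanned in sessions 1 and 2 and all CEM RES arrays in session 3, so line and scan session cannot be told apart in any difference between the lines. Sessions 1 and 2 each held mock and FK866 arrays.

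Values are log2 signals after quantile normalization of the 13 arrays, differences are between group means on that scale, and SE is the standard error from limma's moderated fit of the 4 groups. Adjusted p values are Benjamini-Hochberg values over all 17594 genes from that fit, and a gene was called between the lines at an adjusted p under 0.05. Signals of different probes are on no common scale, so levels are compared between arrays and never between genes. Positions of probes are on the hg19 build.

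The question behind the line comparison is how resistant cells differ from parental cells before any new exposure to FK866. In mock-treated cells 11 of 19 cytosolic genes were higher in CEM RES, 2 were lower and 6 were not called. Of 15 mitochondrial genes tested, 7 were higher, 1 was lower and 7 were not called. Over all genes 47.7% were called, 24.7% as higher and 23% as lower, against 57.9% of the cytosolic and 46.7% of the mitochondrial genes as higher. The median log2 difference was 0.74 for the cytosolic and 0.44 for the mitochondrial genes, where the median of all genes was 0.04. Each array measured RNA of a whole culture, in which fewer cells with a transcript and less of it per cell cannot be told apart.

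The cytosolic genes higher in CEM RES were EPRS, FARSA, FARSB, HARS, IARS, LARS, NARS, SARS, VARS, WARS and YARS, and those lower were MARS and TARSL2. The mitochondrial genes higher in CEM RES were EARS2, IARS2, NARS2, PARS2, TARS2, VARS2 and YARS2, and RARS2 was lower (-0.40, adjusted p = 0.0376) with overlapping arrays. GARS, which serves both compartments, was higher, and KARS was not called. With the genes split by name alone, 12 of 20 names that do not end in 2 were higher and 1 lower, and of 16 tested names that end in 2 there were 7 higher and 2 lower.

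**Figure D1:**
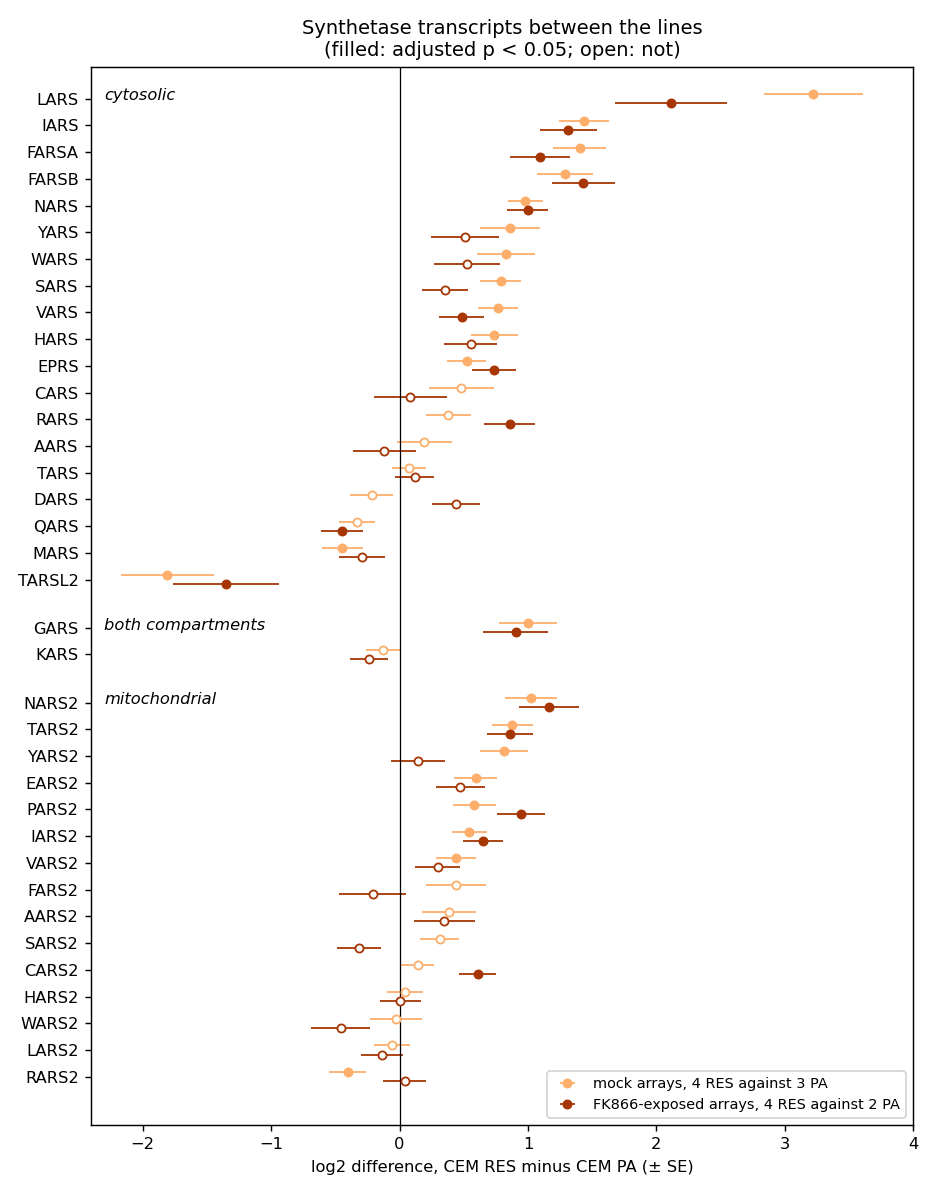
Log2 difference between CEM RES and CEM PA for the 36 synthetase genes tested, with mock arrays in light and FK866-exposed arrays in dark orange, SE as bars and filled points for an adjusted p under 0.05. Most points of the cytosolic and of the mitochondrial genes lie to the right of 0. Of the genes that serve both compartments, GARS lies to the right and KARS to the left. LARS lies farthest right (3.22 in mock cells) and TARSL2 farthest left (-1.81).

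Among the genes higher in CEM RES, LARS and IARS showed the largest differences. Their probes are shown because the size of the difference varied with the place of the probe on the transcript, as given further on for IARS. The genes lie on the minus strand, and the 60-base probes are printed 5′ to 3′ without marked bases.

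IARS upstream, chr9:95043107-95043166: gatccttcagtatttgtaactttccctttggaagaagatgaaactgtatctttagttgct
IARS middle, chr9:94991283-94991342: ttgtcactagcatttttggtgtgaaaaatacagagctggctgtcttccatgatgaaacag
LARS, chr5:145557111-145557170: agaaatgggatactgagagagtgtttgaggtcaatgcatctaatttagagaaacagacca

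LARS, the cytosolic leucyl-tRNA synthetase, which also takes part in leucine sensing, showed the largest difference. Its log2 signal was 7.91, 9.62 and 9.67 on the mock CEM PA arrays and 12.32, 12.37, 12.43 and 12.05 on the mock CEM RES arrays. All CEM RES arrays lay above all CEM PA arrays, and the first CEM PA array stood well below the other two. The difference was 3.22 (SE 0.38, 9.34-fold, adjusted p = 5.05e-05). With FK866, LARS was at 9.37 and 10.13 for CEM PA and at 12.14, 12.08, 11.95 and 11.27 in CEM RES, a difference of 2.11 (SE 0.44, adjusted p = 0.00299). That call rests on few arrays, since without the first FK866 array of CEM PA the difference was 1.73 with an adjusted p of 0.0589.

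IARS, the cytosolic isoleucyl-tRNA synthetase of the multi-synthetase complex, came next among the genes that were higher. Its log2 signal was 12.67, 12.60 and 12.54 in mock CEM PA and 13.65, 14.45, 14.20 and 13.86 in mock CEM RES. The groups lay apart by more than their spread, with a difference of 1.44 (SE 0.20, 2.71-fold, adjusted p = 0.00013). With FK866 the values were 12.85 and 12.88 for CEM PA and 13.89, 14.33, 14.45 and 14.05 in CEM RES, a difference of 1.31 (SE 0.22, adjusted p = 0.000955). Thus IARS was higher in CEM RES by a similar amount on arrays that share no sample with the mock comparison.

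FARSA encodes the catalytic alpha subunit of the cytosolic phenylalanyl-tRNA synthetase, and FARSB its beta subunit. The FARSA signal was 11.71, 11.67 and 11.34 in mock CEM PA against 12.68, 13.08, 13.18 and 12.96 in mock CEM RES (difference 1.40, SE 0.21, adjusted p = 0.000206). With FK866 it was 11.81 and 11.69 for CEM PA and 12.32, 13.16, 13.10 and 12.81 in CEM RES (difference 1.10, SE 0.23, adjusted p = 0.00359). Neither pair of groups overlapped. The FARSB transcript, the partner in the same heterotetramer, differed by 1.29 in mock and 1.43 in FK866-exposed cells (adjusted p = 0.000549 and 0.00107).

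TARSL2, the second cytosolic threonyl-tRNA synthetase, went the other way. Its signal was 5.96, 5.25 and 4.84 on the mock CEM PA arrays and 2.67, 3.84, 3.75 and 3.90 on the mock CEM RES arrays, where it was well above background on 2 of 4. The groups did not overlap, and the difference was -1.81 (SE 0.36, adjusted p = 0.00157). The size depends on how the background of this dim probe was handled, since with normexp correction of the raw spot signals, which adds an offset of 50, the difference was -0.48 (adjusted p = 0.00524). With FK866 TARSL2 was at 5.40 and 5.26 for CEM PA and 3.60, 4.28, 3.47 and 4.56 in CEM RES, well above background on 3 of these 4 (difference -1.35, SE 0.41, adjusted p = 0.0230). With normexp correction this difference was -0.35 and was not called (adjusted p = 0.0598), and with 75th-percentile scaling it was -0.83 (adjusted p = 0.0345). The call under FK866 was also lost without either CEM PA array or without the first or the third CEM RES array (adjusted p = 0.0532 to 0.141). TARS, the main cytosolic threonyl-tRNA synthetase, differed by 0.08 in mock cells (adjusted p = 0.661).

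Among mitochondrial genes NARS2, the asparaginyl-tRNA synthetase of the organelle, showed the largest difference. Its signal was 10.95, 10.53 and 10.17 in mock CEM PA and 11.77, 11.49, 11.76 and 11.27 in mock CEM RES (difference 1.02, SE 0.20, 2.03-fold, adjusted p = 0.00159). In FK866-exposed cells it was 10.61 and 10.27 for CEM PA and 11.42, 11.75, 11.80 and 11.43 in CEM RES (difference 1.16, SE 0.23, adjusted p = 0.00249). Every CEM RES array lay above every CEM PA array in each treatment. The cytosolic enzyme for the same amino acid, NARS, differed by 0.98 and 1.00 (adjusted p = 0.000167 and 0.000625).

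TARS2, the mitochondrial threonyl-tRNA synthetase, was at 10.40, 10.74 and 10.52 in mock CEM PA and at 11.69, 11.56, 11.17 and 11.33 in mock CEM RES (difference 0.88, SE 0.16, adjusted p = 0.000779). With FK866 it was at 10.42 and 10.46 in the parental line and at 11.40, 11.47, 11.18 and 11.16 in CEM RES (difference 0.86, SE 0.18, adjusted p = 0.00306). The lines were apart in each treatment, so that of the threonyl enzymes the mitochondrial one was higher, TARS was not called and TARSL2 was lower. A further TARS2 probe, upstream on the transcript, was not kept.

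EARS2, the mitochondrial glutamyl-tRNA synthetase, was at 9.40, 9.25 and 9.08 in mock CEM PA and at 9.88, 10.05, 9.83 and 9.58 in mock CEM RES (difference 0.59, SE 0.17, adjusted p = 0.0125). With FK866 it was at 9.67 and 9.59 in the parental line and at 9.76, 10.39, 10.19 and 10.07 in CEM RES (difference 0.47, SE 0.19, adjusted p = 0.0727). The arrays of the lines did not overlap in either treatment, but the difference under FK866 missed the threshold. The mock call was lost without the third mock CEM PA array (adjusted p = 0.0511).

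GARS, the glycyl-tRNA synthetase of both compartments, had signals of 9.89, 9.78 and 9.67 in mock CEM PA and 10.64, 10.64, 11.25 and 10.60 in mock CEM RES (difference 1.00, SE 0.23, 2.01-fold, adjusted p = 0.00327). With FK866 it was at 9.70 and 9.95 in the parental line and at 10.45, 10.95, 11.19 and 10.33 in CEM RES (difference 0.90, SE 0.26, adjusted p = 0.0168). It was higher in CEM RES in each treatment, and the third mock CEM RES array stood above its group. The call under FK866 was lost without either FK866 array of CEM PA. The difference was 0.77 without the first and 1.02 without the second. KARS, the lysyl-tRNA synthetase that also serves both compartments, was at 14.41, 14.38 and 14.46 in mock CEM PA and at 14.34, 14.36, 14.32 and 14.13 in mock CEM RES, a difference of -0.13 (SE 0.13, adjusted p = 0.437) between groups that did not overlap. Under FK866 KARS was at 14.49 and 14.82 for CEM PA and at 14.30, 14.48, 14.56 and 14.35 in CEM RES, and these arrays overlapped.

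**Figure D2:**
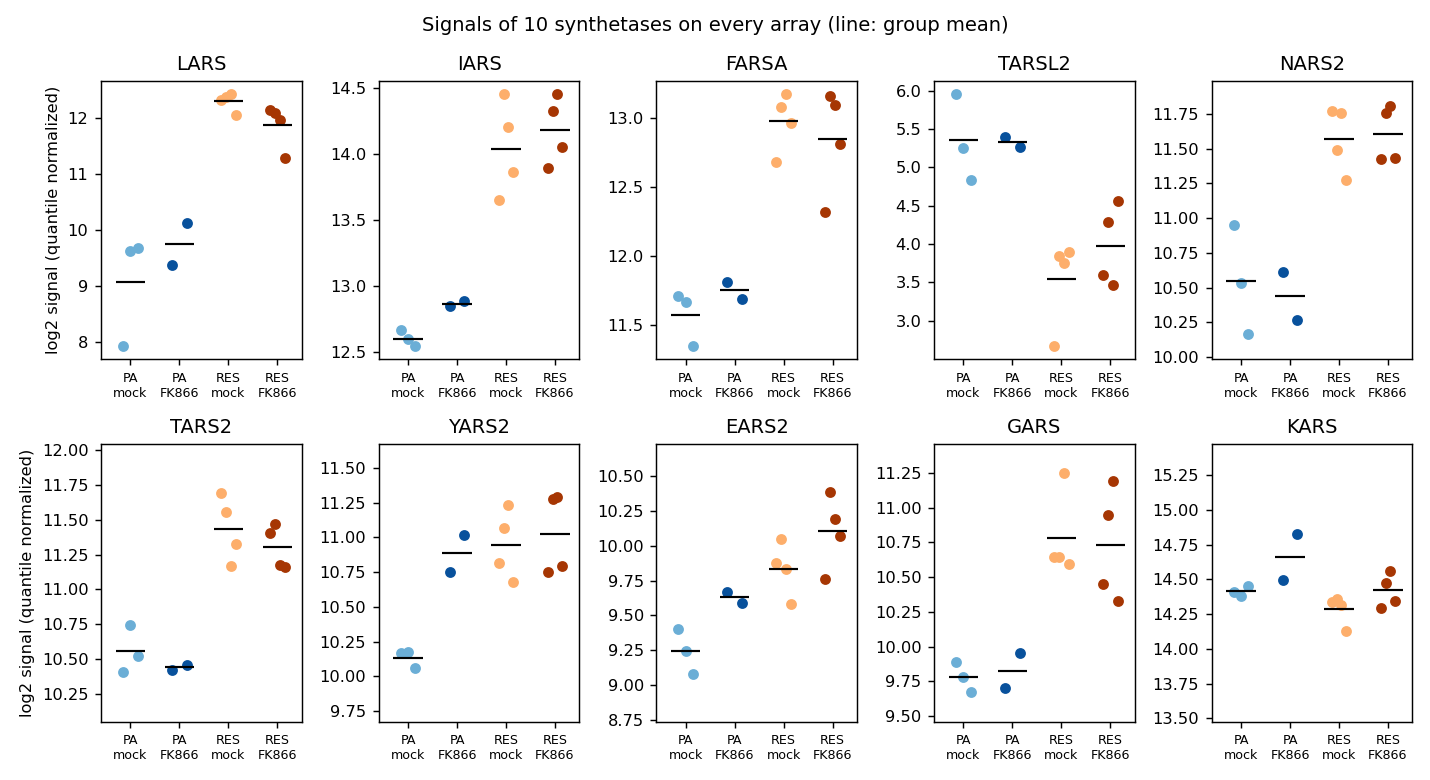
Log2 signal of 10 synthetases on each of the 13 arrays, by group, with the group mean as a line; each panel has its own vertical range and panels are not comparable in level. In LARS, IARS, FARSA, NARS2, TARS2 and GARS the CEM RES arrays lie above the CEM PA arrays in each treatment, in TARSL2 below, and in YARS2 the FK866-exposed CEM PA arrays (10.75 and 11.02) reach the CEM RES range.

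The arrays exposed to FK866 gave the line difference a second time, on cells that share no array with the mock comparison but share the lines and the scan sessions. Here 8 of 19 cytosolic genes were higher in CEM RES and 2 lower, and 5 of 15 mitochondrial genes were higher and 0 lower. Over all genes 35.5% were called, 18.6% as higher and 16.9% as lower. The median differences were 0.51 for the cytosolic and 0.30 for the mitochondrial genes, beside 0.09 for all genes. Of the 22 genes called in mock cells 13 were also called here, all 13 in the same direction. This was 59.1% of the mock calls and 81.2% of the 16 calls under FK866, where all genes gave 59.1% and 79.5%.

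The 13 genes called in each comparison were EPRS, FARSA, FARSB, GARS, IARS, IARS2, LARS, NARS, NARS2, PARS2, TARS2, TARSL2 and VARS. VARS, the cytosolic valyl-tRNA synthetase, was near the threshold under FK866 (difference 0.48, adjusted p = 0.04996). PARS2, the mitochondrial prolyl-tRNA synthetase, differed by 0.58 in mock and 0.95 in FK866-exposed cells. Called only in FK866-exposed cells were CARS2 (0.61), RARS (0.86) and QARS (-0.45, adjusted p = 0.0473), the enzymes for mitochondrial cysteine and cytosolic arginine and glutamine. Their differences in mock cells were 0.14, 0.38 and -0.33. A call in 1 treatment alone does not show that treatments differ, and no synthetase passed the test of that difference, described with the FK866 responses.

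Between mock CEM RES and CEM PA the arrays of 24 of 36 synthetases did not overlap, beside 48.9% of all genes, and between the FK866-exposed cells 25 of 36, beside 57.7%.

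Of 8 synthetases in the multi-synthetase complex, EPRS, IARS and LARS were higher in mock CEM RES and MARS lower, with a median of 0.13. Of 12 cytosolic genes outside the complex 8 were higher and TARSL2 was lower, with a median of 0.78. Under FK866 the medians were 0.58 and 0.50, with 4 of 8 and 4 of 12 higher, and QARS in the complex and TARSL2 outside it were lower. Over all genes 24.7% were higher and 23% lower in mock cells, and 18.6% were higher and 16.9% lower under FK866. Whether the genes in the complex and those outside it differed was not tested. DARS, the aspartyl-tRNA synthetase of the complex, differed between the lines by -0.22 in mock and 0.44 in FK866-exposed cells and was called in neither.

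Among the 12 synthetase genes commonly listed as ATF4 targets, 8 were higher in mock CEM RES (EPRS, GARS, IARS, LARS, NARS, SARS, WARS and YARS) and MARS was lower, with a median of 0.81. Of 8 cytosolic genes not so listed 4 were higher and TARSL2 was lower, with a median of 0.56. Over all genes 24.7% were higher and 23% lower in mock cells. Under FK866 the counts were 5 of 12 and 4 of 8 higher, with medians of 0.52 each, beside 18.6% of all genes higher. The genes called lower there were QARS and TARSL2, which are not on the list, beside 16.9% of all genes lower. AARS, CARS and TARS, listed as ATF4 targets too, differed by 0.19, 0.48 and 0.08 in mock cells and were not called.

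Other ATF4 targets went in either direction, at shares near those of all genes. Of 19, ATF4 itself included, 5 were higher in mock CEM RES (ATF3, CHAC1, DDIT3, PSAT1 and SLC7A5), 3 were lower (CEBPB, CTH and PPP1R15A) and 11 were not called, with a median of 0.21, where 24.7% of all genes were higher and 23% lower. CHAC1, which degrades glutathione, differed by 1.68, and PSAT1, an enzyme of serine synthesis, by 0.78. CTH, which makes cysteine from cystathionine, differed by -1.25. ATF4 mRNA differed by 0.09 (adjusted p = 0.663), and ASNS, the asparagine synthetase and a standard ATF4 target, by -0.05 (adjusted p = 0.774).

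Genes that work with the synthetases are set beside all genes, of which 24.7% were higher in mock CEM RES and 23% lower. Of the cytosolic partners 25% were higher, near the share of all genes. Of 8 cytosolic partners, AIMP2 (1.53, adjusted p = 0.000624) and EEF1E1 (1.21) were higher in mock CEM RES, and DTD1, a D-aminoacyl-tRNA deacylase, was lower (-1.15). AIMP1, the third scaffold protein of the complex, differed by -0.23 and was not called. Of 6 mitochondrial partners on the array, 4 were higher and 0 lower. They were QRSL1 (0.89) and GATC (1.44), which belong to the amidotransferase that makes mitochondrial glutaminyl-tRNA, MTFMT (0.57), which formylates the initiator methionyl-tRNA, and TUFM (0.55), the mitochondrial elongation factor that delivers aminoacyl-tRNA. The third subunit of the amidotransferase, listed as PET112 on the array, differed by 0.33 and was not called.

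IARS had 3 kept probes, of which the upstream and the middle one are printed with LARS. The upstream probe differed by 3.25 between mock CEM RES and CEM PA, the middle one by 1.38 and the downstream one (chr9:94972871-94972930), which stands for the gene above, by 1.44. Signals of the upstream probe were 5.24, 4.89 and 5.18 on the mock CEM PA arrays and 7.85, 8.68, 8.79 and 8.11 on the mock CEM RES arrays. With FK866 its difference was 2.27, against 1.35 and 1.31 for the other probes. IARS was thus higher in CEM RES with each of its probes, and the difference was widest at the upstream end.

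LARS has 1 probe on the array, which lies in the coding sequence near its 5′ end, so its difference could not be set beside a downstream one. A like shift was seen over the array. In 1237 genes whose outermost kept probes lay at least 10 kb apart in the genome, the upstream signal minus the downstream signal had a median of -1.97, -1.86 and -1.72 on the mock CEM PA arrays. It was -1.40, -1.41, -1.28 and -1.43 on the mock CEM RES arrays, -1.40 and -1.33 in CEM PA with FK866 and -1.48, -1.48, -1.44 and -1.69 in CEM RES with FK866. The mock CEM PA arrays were the lowest as a group, and the first of them, on which LARS was dimmest, was the lowest array of all.

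In these 1237 genes the median line difference in mock cells was 0.27 at the upstream and -0.14 at the downstream probe, and 11.6% showed a gap between them at least as wide as that of IARS. Between FK866-exposed lines the median gap between upstream and downstream probes was -0.05, and 16.7% of the genes showed a gap at least as wide as that of IARS. LARS differed by 2.11 in that comparison. How much of the LARS difference, or of the differences in other genes with 1 probe, goes with the position of the probe was not tested. In MARS the downstream probe, used for the gene, differed by -0.44 and the upstream one by -0.09 (adjusted p over all probes = 0.793), and the one used lies close to DDIT3, which is encoded on the other strand and was higher in CEM RES (0.80). In SARS the probes differed by 0.79 and 0.62, each called.

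**Figure D3:**
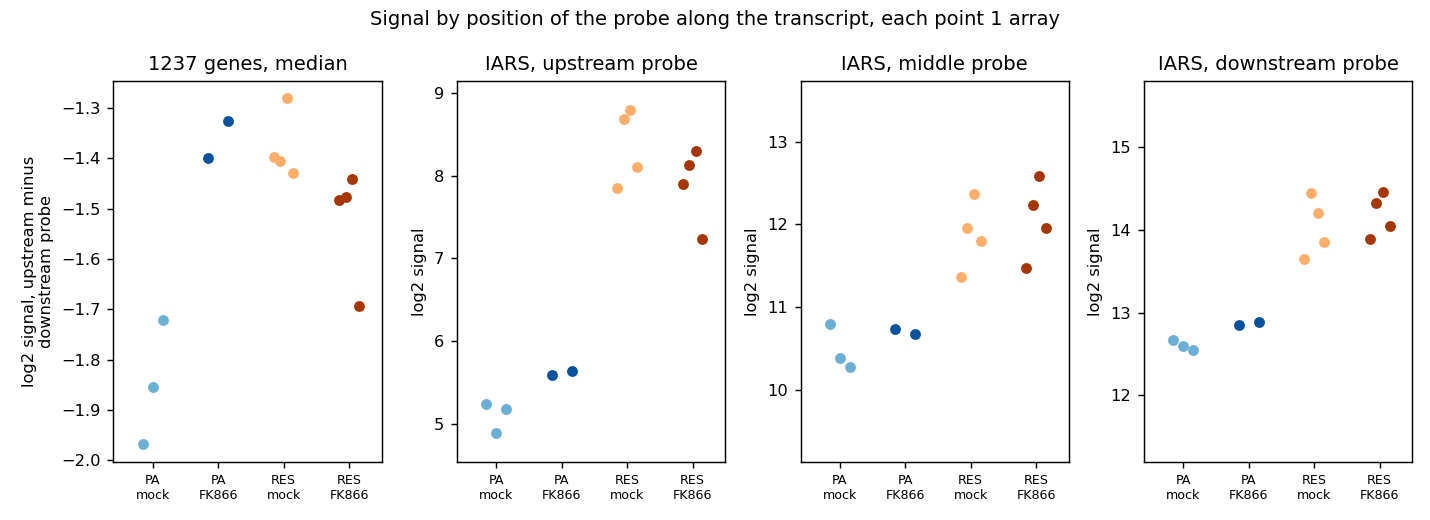
At left, the median over 1237 genes of the log2 signal of the most upstream minus the most downstream probe on each array; in the other panels, the log2 signal of the 3 IARS probes on each array, over axes of equal height. The mock CEM PA arrays lie lowest at left (-1.97 to -1.72), and the gap between the lines is wider at the upstream IARS probe (3.25 in mock cells) than at the other probes (1.38 and 1.44).

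The response to FK866 was asked in each line, with the study's double threshold of an unadjusted p under 0.05 and an absolute log2 difference over 0.75. In CEM PA 1 of 36 synthetases passed it, beside 5.47% of all genes, and 0 passed an adjusted p of 0.05, beside 0.512% of all genes. An unadjusted p under 0.05 was found for 7 of 36, beside 13.5% of all genes. The median difference was 0.06 for the cytosolic and 0.04 for the mitochondrial genes, where all genes had a median of -0.02.

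YARS2, the mitochondrial tyrosyl-tRNA synthetase, was the gene past the double threshold. Its signal was 10.17, 10.18 and 10.06 in mock CEM PA and 10.75 and 11.02 with FK866, a difference of 0.75 (SE 0.22, 1.68-fold, unadjusted p = 0.00518, adjusted p = 0.159 in limma's test). The groups did not overlap, which held for 17 of 36 synthetases in this comparison. How often it held over all genes was not counted, so the lack of overlap cannot be read as particular to YARS2 or to the synthetases. The YARS2 difference lay just over the limit. It was 0.58 within scan session 1 and 0.90 within session 2. A block for the replicate number gave a difference of 0.71 (unadjusted p = 0.00134), which passed an adjusted p of 0.05 but no longer the limit on its size. With slide as a block it was 0.58 (unadjusted p = 0.185), and without the second FK866 array 0.61 (unadjusted p = 0.0551), and the call was lost in each.

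In CEM RES the YARS2 signal was 10.82, 11.07, 11.23 and 10.68 on the mock arrays and 10.75, 11.28, 11.29 and 10.79 with FK866, and these overlapped (difference 0.08, SE 0.17). The difference between the lines was 0.81 in mock cells (SE 0.18, adjusted p = 0.00345) and 0.14 with FK866 (SE 0.21, adjusted p = 0.628). The FK866-exposed CEM PA arrays thus lay in the range of CEM RES. The responses of the lines differed by -0.67 (unadjusted p = 0.0333, adjusted p = 0.406), which did not pass.

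The other 6 genes with an unadjusted p under 0.05 in CEM PA went in either direction and stayed inside the fold limit. WARS2 (0.67) and SARS2 (0.45), the mitochondrial tryptophanyl- and seryl-tRNA synthetases, had higher means with FK866. DARS (-0.55), RARS2 (-0.54), CARS2 (-0.50) and RARS (-0.47) had lower ones, so both arginyl-tRNA synthetases were among them. LARS differed by 0.68 with an unadjusted p of 0.164, and by 1.46 within session 1 and 0.48 within session 2. In the 1237 genes with distant probes the response of CEM PA had a median of 0.21 at the upstream and -0.10 at the downstream probe, and its part in the LARS value was not tested. Under the replicate block, LARS in place of YARS2 was the 1 gene past the double threshold.

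In CEM RES 0 of 36 synthetases passed the double threshold (1.34% of all genes), 0 an adjusted p of 0.05 (0% of all genes) and 0 an unadjusted p of 0.05 (4.78% of all genes). The differences ranged from -0.43 (LARS) to 0.44 (TARSL2), and the medians were -0.04 for the cytosolic and -0.01 for the mitochondrial genes. For every synthetase the FK866 and mock arrays of CEM RES overlapped. This cannot be read as particular to the synthetases, because how often it held over all genes was not counted. The smallest unadjusted p was 0.112.

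**Figure D4:**
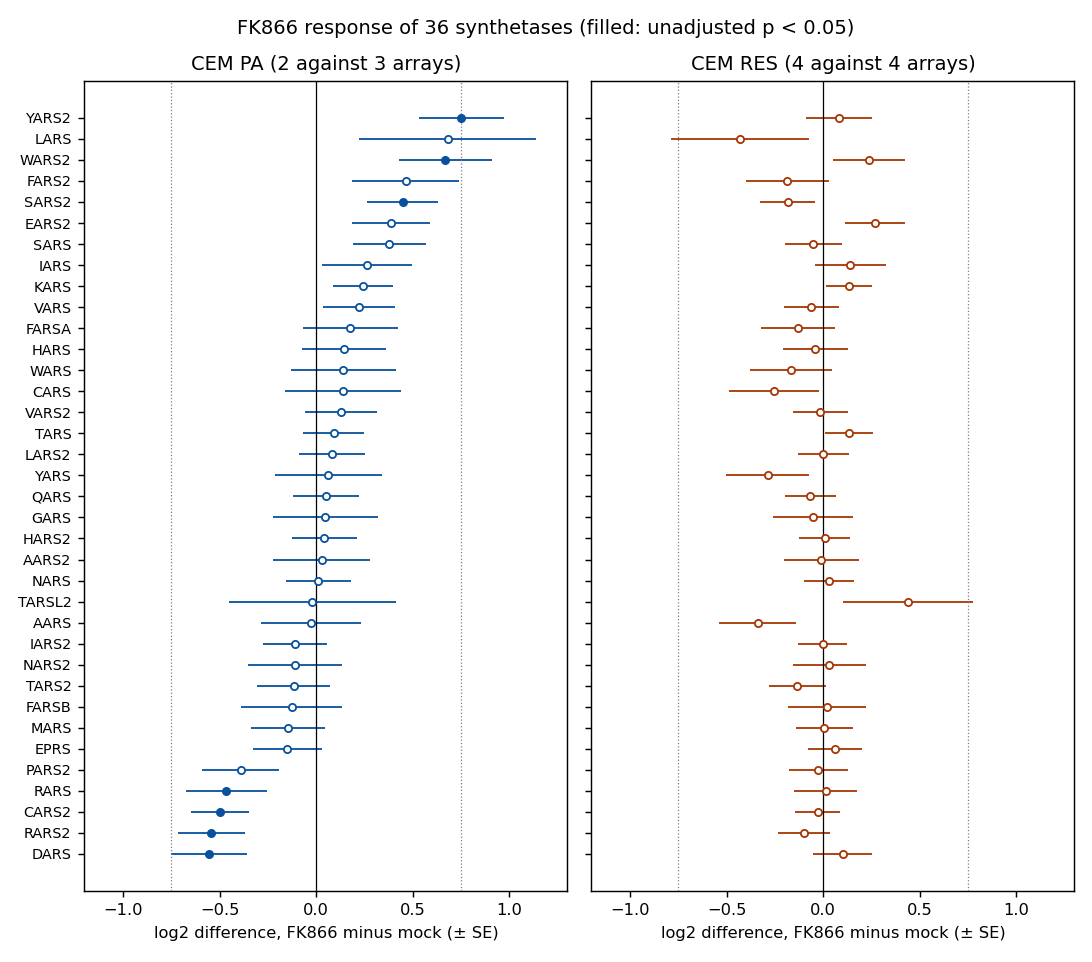
Log2 difference between FK866 and mock arrays of the 36 synthetases tested, in CEM PA at left and CEM RES at right, ordered by the difference in CEM PA, with SE as bars, filled points for an unadjusted p under 0.05 and dotted lines at the fold limit in each direction. In CEM PA 7 points are filled and YARS2 (0.75) reaches the dotted line, and in CEM RES 0 points are filled.

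The test of the difference between the responses of the lines called 0 of 36 synthetases, beside 0.131% of all genes, and 4 of 36 had an unadjusted p under 0.05 in limma's test, beside 11.1% of all genes. These were CARS2, DARS, SARS2 and YARS2, and the smallest adjusted p was 0.357. The responses of the lines were thus not shown to differ for any synthetase, with 2 FK866 arrays of CEM PA behind the comparison. Among the partners PSTK, the kinase of selenocysteine synthesis on its tRNA, passed the double threshold in CEM PA (0.77), and GATC was just short of it (0.73).

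The promoters were searched for the composite element bound by ATF4 and C/EBP proteins, with the letters TGATGNAA or, on the other strand, TTNCATCA. RefSeq windows of GRCh38.p14, from 250 bases before to 50 after the start of the gene, were given for 30 of the 37 genes under their current symbols. A match was found in 8 of these 30 (26.7%), and in 1217 of all 27305 genes with a window (4.46%). It was in 6 of 14 cytosolic genes (AARS, CARS, IARS, MARS, NARS and TARS), in GARS, and in 1 of 14 mitochondrial genes, YARS2. Of 10 genes on the ATF4 list with a window 7 held a match.

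The matches that lay wholly before the start are shown to place the element beside the genes described above, with the match in capitals and the strand of the gene throughout.

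AARS, chr16:70289666-70289713, minus strand: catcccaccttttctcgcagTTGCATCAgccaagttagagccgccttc
GARS, chr7:30594825-30594872, plus strand: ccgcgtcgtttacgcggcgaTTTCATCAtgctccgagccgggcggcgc
IARS, chr9:92293698-92293730, minus strand: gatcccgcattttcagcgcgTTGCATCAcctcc
YARS2, chr12:32756067-32756114, minus strand: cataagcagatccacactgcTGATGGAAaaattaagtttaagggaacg

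IARS, GARS and YARS2 were higher in mock CEM RES, and AARS, with a difference of 0.19, was not called. By call, 4 of 15 genes higher in mock CEM RES held a match, 3 of 12 not called and 1 of 2 lower (26.7% of the higher and 25% of the genes not called). NARS2, TARS2, FARSA and FARSB, with large differences, held none in their windows. A match is a description of these letters in this window and no evidence of binding.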

How the data were processed

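Per the file headers, the authors measured 1-colour Cy3 arrays with Agilent Feature Extraction (version 10.7.7.1 per the labels) and deposited the spot intensities, background-subtracted and detrended within each array. They also deposited log2 values quantile normalized over the arrays, with an equal median of 5.37 in every column, whose centring is not given in the sources used here and which served as an alternative (correlation with the values used of at least 0.99975 over 17594 genes). Here intensities of non-control spots were put on the log2 scale, outlier spots set to missing, quantile normalized over 13 arrays and averaged per probe. Kept probes were well above background, in most of their spots, on all arrays of 1 group or more (22751 of 34127), and the kept probe with the highest mean stood for its gene.

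limma 3.58.1 in R 4.3.3 fitted the 4 groups in one model (prior degrees of freedom 3.15), two-sided, with Benjamini-Hochberg adjustment. Groups and replicate numbers come from the sample labels. The members and lists were chosen with earlier results of these data known, and lists were given no test. Values of every array are printed for genes past a threshold in an FK866 response, the 4 cytosolic and 4 mitochondrial genes with the largest called, non-overlapping difference between mock lines, and GARS and KARS. FARSB and the IARS probes were named after their values were seen, as was the comparison of upstream with downstream probes, which used kept probes well above background on all arrays. Same-numbered mock and FK866 arrays deviated together (correlation 0.342 and 0.440 in CEM PA, 0.217 to 0.484 in CEM RES), so the number was also used as a block. In CEM PA same-numbered arrays also shared a scan session. With 2 FK866 arrays of CEM PA the deviations of these arrays mirror each other, so the correlations there are not independent. Precision is set by the number of arrays and by signal over background, and replicates correlated at 0.978 to 0.991 across genes. The fits were also run on simulated data in which each array varied independently, so shared deviations of same-numbered arrays were not covered. Sequences were read with Python 3.11.15 and figures drawn with matplotlib 3.10.9. Proteins were not analysed here.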

Additional observations from a re-analysis of the deposited data

Results flagged for a closer look

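A single array lay far from the other 3 of its group in 2 of 76 groups of 4 CEM RES arrays looked at, where chance gives about 1 in 20. The GARS signal was 11.25 on the third mock CEM RES array and 10.60 to 10.64 on the others, a gap of 0.927 of the range of the group. The TARSL2 signal was 2.667 on the first mock CEM RES array and 3.755 to 3.897 on the others, a gap of 0.884 of the range, and the signal was well above background on 2 of these 4 arrays. No synthetase passed the test of a difference between the FK866 responses of the lines.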

How the results depend on the processing

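In the mock comparison of the lines 17 of 22 called synthetases kept direction and call in the 14 alternatives (13 for TARSL2, which gives no value when only probes well above background on all arrays are used) and with each of 13 arrays left out in turn, and EARS2, EPRS, MARS, RARS2 and VARS2 lost the call in at least 1. Under FK866 8 of 16 did so, and CARS2, EPRS, GARS, IARS2, LARS, QARS, TARSL2 and VARS did not. MARS, RARS2 and VARS2 each lost the mock call in 5 of the 14 alternatives. QARS lost the call under FK866 in 5 of the 14 and VARS in 8. None of the genes called between the lines changed direction there, and genes not called, other than KARS, were not followed across the alternatives. Counts between the FK866-exposed lines ranged from 5 to 10 cytosolic and from 3 to 6 mitochondrial genes with an array left out, lowest without the first FK866 array of CEM PA, where 1 array is assumed to vary like the other groups. In the FK866 response of CEM PA the count past the double threshold ranged from 0 to 2 with an array left out (0 without the second FK866 or the third mock array, 2 without the second mock array). It was 0 with array quality weights and 2 with scan session as a fixed block, which was chosen after seeing the data. At an adjusted p under 0.05 it was 1 with the replicate block (YARS2) and 1 with array quality weights (CARS2). The median of the cytosolic genes in this response was -0.12 with slide as a block, which leaves 1 array of each treatment on a shared slide. The replicate block also ended the calls of VARS2 in mock cells (adjusted p = 0.0597) and of QARS under FK866 (0.0754), and no other call between lines. With 75th-percentile scaling the median line difference of all genes went from 0.04 to 0.16 in mock cells and from 0.09 to 0.22 under FK866, with 0.72 and 0.46 for cytosolic genes. The number of arrays, and for TARSL2 and MARS2 the signal over background, limit the precision.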
